A study of Mus musculus with 6 samples.

Results

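The 10 genes described here encode growth factor receptors of fibroblasts: Pdgfra, Pdgfrb, Egfr, Fgfr1, Fgfr2, Igf1r, Insr, Met, Tgfbr1 and Tgfbr2. They were listed by name, with earlier results of these data known, and are 10 of the 21883 protein-coding genes on the assembled chromosomes. A peak was assigned to a gene when it lay inside the gene's GRCm38 span or within 1000 bp of it. The peaks come from E2F1 ChIP-seq, which sequences the DNA that coprecipitates with this transcription factor, in the mouse embryonic fibroblast line NIH/3T3. In the E2F1 group the cells carried a stably integrated, doxycycline-inducible E2F1 construct, and in the EV group an inducible empty vector. Each group had 2 libraries with a peak list each. Growth medium held 10% serum for both groups. They were held for 48 hours in medium with 0.25% serum, which brings the cells to a resting state. Both groups were collected 12 hours after doxycycline was added, so EV shares the starvation and the drug with E2F1. The treatment protocol gives 500 ng/ml doxycycline, whereas the names of the peak lists carry the number 200. Whether each line was a single clone, and whether the libraries of a group came from separate cultures, is not given in the sources used here. The promoter that drives the constructs is not given there either. Input libraries of the EV line (2 samples) were not analysed here.

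Growth factor receptors carry signals from serum to the cell cycle. All but the TGF-beta receptors are receptor tyrosine kinases: ligand binding activates the kinase, adaptors such as Grb2 and Shc1 bind the phosphorylated tail, and the RAS-ERK and PI3K-AKT pathways are switched on. Tgfbr2 and Tgfbr1 are serine/threonine kinases that pair on binding TGF-beta and phosphorylate SMAD proteins. In fibroblasts, PDGF, EGF and IGF-1 are classical mitogens that move resting cells toward S phase. Before S phase, cyclin-dependent kinases inactivate the RB protein and release E2F1 to act on its target genes. E2F1 thus acts downstream of these receptors in the textbook pathway, and the lists show whether their own genes lie at sites where induced E2F1 was found.

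A peak was listed at 9 of the 10 receptor genes in E2F1 replicate 1 and at the same 9 genes in E2F1 replicate 2. The gene without one was Egfr. Since the genes were chosen with earlier results known, this count describes them and is no independent evidence. The share of 90% has a Wilson 95% interval of 59.6% to 98.2%, which covers counting error only. No receptor gene had a peak in EV replicate 1 or in EV replicate 2, for which the interval runs from 0 to 27.8%. Over all protein-coding genes the same assignment found a peak in both E2F1 lists at 34.4%, in E2F1 replicate 1 at 36.9%, in E2F1 replicate 2 at 38.2%, in EV replicate 1 at 0.0366% and in EV replicate 2 at 0.407%. The receptor genes are long, from 39941 to 281412 bp against a median of 17170 bp for protein-coding genes. Among the 5406 protein-coding genes in that range of lengths, 48.1% had a peak in both E2F1 lists. The mean number of receptor genes with a peak was 9 ± 0 in the E2F1 libraries and 0 ± 0 in the EV libraries (SD, n = 2 each), a difference of 9. An exact two-sided permutation test over the 4 libraries gave p = 0.333, which is the smallest value that 2 against 2 libraries allow, so the design cannot reach 0.05. With every E2F1 count above every EV count, this p-value is set by the number of libraries and does not measure the spread between them. Any spread between libraries of a group may be technical.

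**Figure D1:**
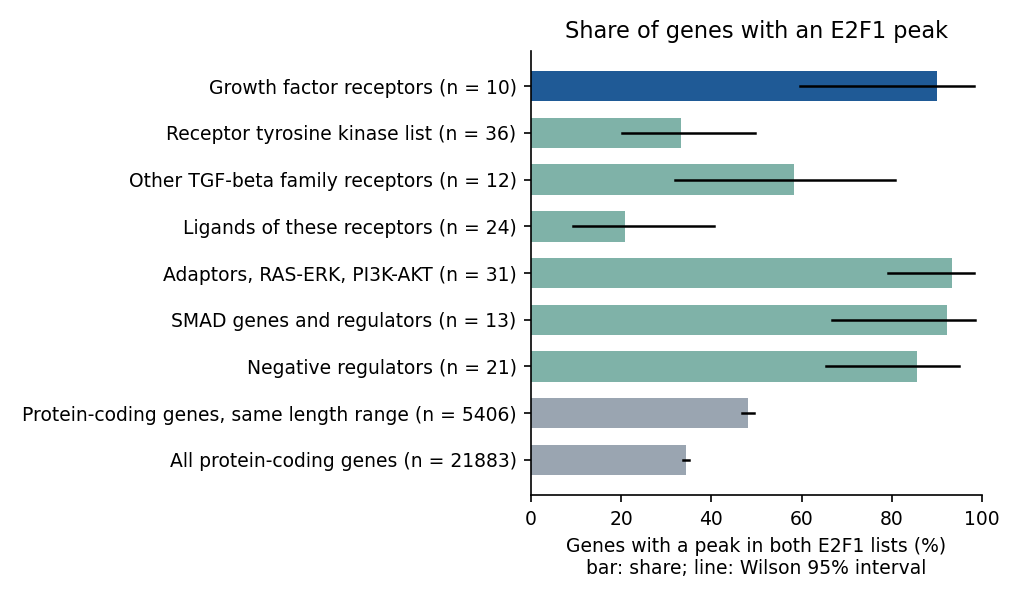
Horizontal bars give the percentage of genes with a peak in both E2F1 lists for the 10 receptors, 6 lists of related signalling genes and 2 backgrounds; black lines are Wilson 95% intervals, which cover counting error only. The receptors stand at 90%, the list of other receptor tyrosine kinases and related receptors at 33.3%, and all protein-coding genes at 34.4%.

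At all 9 genes a peak came within 1000 bp of the annotated start, or of a gene boundary where the promoter table has no entry for the gene. The same was true of 93.1% of the 7535 protein-coding genes with a peak in both lists, and 32.1% of all protein-coding genes had a peak in both lists by this narrower rule. For the peak nearest that start or boundary, the summit lay 19 to 869 bp away from it in E2F1 replicate 1 (median 277 bp). In E2F1 replicate 2 it lay 31 to 815 bp away (median 267 bp). None of the 7 receptor genes with an annotated start had a peak within 1000 bp of its far end in either E2F1 list. The share of all protein-coding genes with such a peak is not given here, so this is not shown to be particular to the receptors. Start annotation from RefSeq on GRCm38.p6, with promoter sequence, was used for Pdgfra, Egfr, Fgfr2, Igf1r, Met, Tgfbr1 and Tgfbr2.

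The peaks covered the 250 bases before the start at Igf1r, Met, Tgfbr1 and Tgfbr2 in both E2F1 lists, and these promoters are shown first. Egfr is shown as the gene without a peak, and Fgfr2 as a gene whose peak begins downstream of its start. Sequences are from RefSeq (GRCm38.p6), 5′ to 3′ on the strand of the gene, ending at the base before the start. Capitals mark CpG dinucleotides, a C followed by a G, which cluster in the CpG islands of many promoters. The windows are chr7:67952007-67952256 (plus strand) for Igf1r, chr6:17463707-17463956 (plus) for Met, chr4:47352972-47353221 (plus) for Tgfbr1, chr9:116175364-116175613 (minus) for Tgfbr2, chr11:16751953-16752202 (plus) for Egfr and chr7:130266809-130267058 (minus) for Fgfr2.
Igf1r: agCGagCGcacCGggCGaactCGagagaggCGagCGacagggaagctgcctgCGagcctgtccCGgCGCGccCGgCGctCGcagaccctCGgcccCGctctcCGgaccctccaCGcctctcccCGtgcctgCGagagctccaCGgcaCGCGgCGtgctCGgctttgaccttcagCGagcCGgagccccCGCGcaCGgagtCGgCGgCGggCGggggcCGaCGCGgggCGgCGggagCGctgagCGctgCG
Met: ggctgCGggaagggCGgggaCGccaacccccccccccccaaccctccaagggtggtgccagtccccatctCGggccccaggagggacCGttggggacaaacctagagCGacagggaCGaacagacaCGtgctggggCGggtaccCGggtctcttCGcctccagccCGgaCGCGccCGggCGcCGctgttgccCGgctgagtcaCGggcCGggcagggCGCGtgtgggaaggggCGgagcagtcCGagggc
Tgfbr1: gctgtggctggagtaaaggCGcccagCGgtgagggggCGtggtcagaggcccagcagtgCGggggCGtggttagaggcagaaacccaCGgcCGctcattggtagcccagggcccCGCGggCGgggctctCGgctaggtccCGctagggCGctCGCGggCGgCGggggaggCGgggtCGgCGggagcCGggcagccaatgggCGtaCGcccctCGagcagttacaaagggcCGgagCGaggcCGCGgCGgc
Tgfbr2: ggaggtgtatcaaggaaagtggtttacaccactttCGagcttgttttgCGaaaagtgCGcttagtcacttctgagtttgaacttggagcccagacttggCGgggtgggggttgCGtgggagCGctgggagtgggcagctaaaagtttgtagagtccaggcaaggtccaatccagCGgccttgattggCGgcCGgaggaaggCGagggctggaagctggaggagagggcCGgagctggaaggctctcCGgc
Egfr: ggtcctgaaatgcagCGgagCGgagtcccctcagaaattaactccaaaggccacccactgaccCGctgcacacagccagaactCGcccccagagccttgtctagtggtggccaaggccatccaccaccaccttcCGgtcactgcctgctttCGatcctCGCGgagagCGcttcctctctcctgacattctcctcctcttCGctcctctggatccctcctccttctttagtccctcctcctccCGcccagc
Fgfr2: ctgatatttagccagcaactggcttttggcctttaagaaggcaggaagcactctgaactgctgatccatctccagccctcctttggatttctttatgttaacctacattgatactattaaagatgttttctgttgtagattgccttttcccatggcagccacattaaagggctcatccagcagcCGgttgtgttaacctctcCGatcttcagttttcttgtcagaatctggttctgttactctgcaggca

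The Igf1r promoter held the most CpGs of the 7 genes, 42 in 250 bases, and 98.9% of the 21262 promoters of protein-coding genes in the table held fewer. Tgfbr1 held 29 and Met 24. Tgfbr2 held 12 and Egfr 11, close to the median of 10 over all promoters. The 2 promoters with the fewest, Pdgfra with 4 and Fgfr2 with 2, were those whose peaks started inside the gene and did not cover the window. Thus the 4 windows under a peak in both lists held 12 to 42 CpGs and the 3 others 2 to 11. A further annotated start of Tgfbr1, at position 47386216, had 3 CpGs in its window and no peak.

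Across all promoters of protein-coding genes the presence of a peak went with CpG number, where a promoter under a peak is one whose 250 bases share at least 1 bp with it. Promoters under a peak in both E2F1 lists had a median of 21.5 CpGs and 65.2% G and C (n = 5832), and promoters under no E2F1 peak a median of 4 CpGs and 50.8% (n = 13962). A peak in both lists reached 0.558% of promoters with 0 to 4 CpGs, 17.9% of those with 5 to 14, 50.7% of those with 15 to 24 and 75% of those with 25 or more. Pdgfra and Fgfr2 fall in the lowest of these classes and Egfr and Tgfbr2 in the next, of which only Tgfbr2 had a peak over its window. Met falls in the third class, and Tgfbr1 and Igf1r in the highest. The part of CpG number in the peaks at the receptor genes was not tested.

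**Figure D2:**
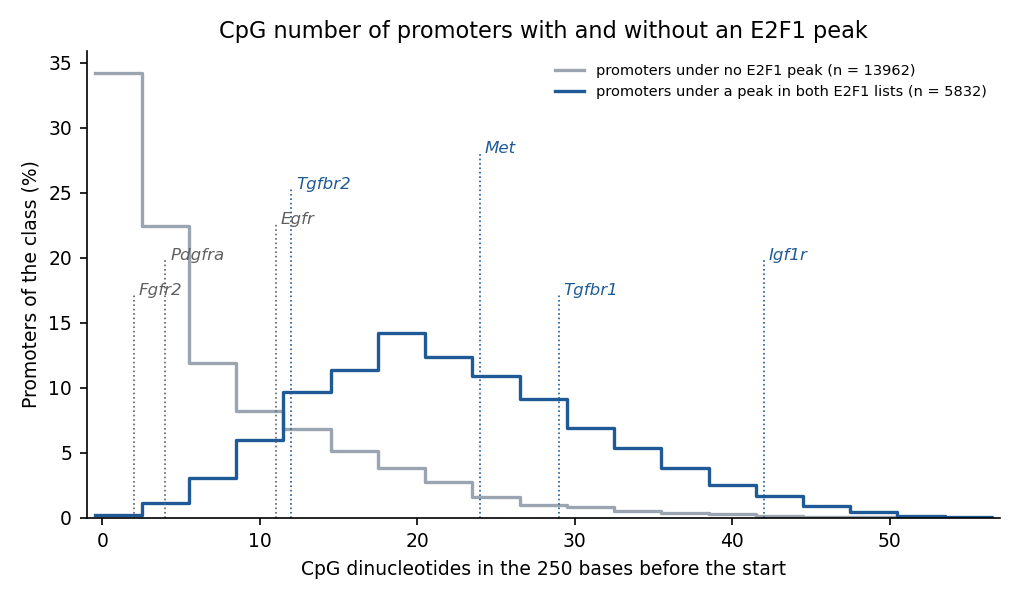
Lines show the percentage of promoters (y axis) by number of CpG dinucleotides in the 250 bases before the start (x axis, steps of 3), for promoters under a peak in both E2F1 lists (blue) and under none (grey); dotted lines mark the 7 receptor promoters, in blue where a peak covered the window in both lists. Igf1r, Tgfbr1 and Met, at 42, 29 and 24, lie above the blue median of 21.5, while Egfr and Tgfbr2 lie side by side at 11 and 12.

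The consensus E2F site was searched on both strands as the 8-letter words TTTCCCGC or TTTCGCGC or TTTGCCGC or TTTGGCGC. None of the 8 promoter windows of the 7 receptor genes held any of these words, against 2.35% of all promoters, 5.16% of promoters under a peak in both E2F1 lists and 1.05% of those under no peak. With the leading T left off (TTCCCGC or TTCGCGC or TTGCCGC or TTGGCGC), 1 receptor promoter had a match, against 10% of all promoters and 20.4% of those under a peak. It was that of Met, which reads GCGGGAA from 246 to 240 bases before the start, the reverse complement of TTCCCGC. The GC box GGGCGG, also searched on both strands, occurred 3 times in Met, 2 times each in Igf1r and Tgfbr1 and 1 time in Egfr. It was held by 42.6% of all promoters, 72.4% of those under a peak in both E2F1 lists and 28.1% of those under no peak. CCAAT occurred 2 times each in Tgfbr1 and Tgfbr2, against 35.4% of all promoters and 33.8% of those under a peak in both lists. TATAAA occurred in none of the 8 windows, against 11.6% of all promoters and 3.69% of those under a peak in both lists. These matches describe only the windows: the peaks are wider than 250 bases, and sequence outside the windows was not used here.

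Igf1r, the receptor for IGF-1 and the strongest site of the group, lies on chromosome 7 from 67952257 to 68233668. In E2F1 replicate 1 the peak at its start ran from 67950539 to 67953838, with a fold enrichment of 29.3 as given by the authors' peak caller. In E2F1 replicate 2 it ran from 67950581 to 67953565, with a fold enrichment of 52.5. It ranked 285 of 7836 peaks by fold in replicate 1 and 167 of 8027 in replicate 2. By width, 3300 and 2985 bp, it ranked 63 and 43, against medians of 938 and 814 bp in those lists. The peak was thus both high and broad in each E2F1 library. Its summit lay 579 and 537 bp before the annotated start, upstream of the window printed above. By the geometric mean of its folds, 39.2, Igf1r ranked 181 of the 7535 protein-coding genes with a peak in both lists, where the median gene had 11.5. E2F1 replicate 2 alone listed a second peak inside Igf1r, at 68129204 to 68129481 and 177085 bp from the start, 278 bp wide with a fold of 8.75. Exons and introns are not in the annotation used here, so its place in the gene structure is not given.

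Insr, the insulin receptor and a close relative of Igf1r, had one of the weakest sites. It spans 3150922 to 3279649 on chromosome 8, and the peaks lay over its upper boundary, at 3278990 to 3279871 in E2F1 replicate 1 and 3279140 to 3279707 in E2F1 replicate 2. The fold was 4.62 in replicate 1, where it ranked 7523 of 7836, and 10.2 in replicate 2, where it ranked 4505 of 8027. Only 3.78% of the peaks of replicate 1 had a lower fold, against 43.9% in replicate 2, which made Insr the receptor gene with the largest difference between libraries, a ratio of 2.21. The values of the related receptors did not overlap: the lower Igf1r value, 29.3, was above the higher Insr value, 10.2.

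Met, the receptor for hepatocyte growth factor, had the second highest fold enrichment. The gene spans 17463349 to 17573980 on chromosome 6. Its peak covered 17463325 to 17464656 with a fold of 14.2 in E2F1 replicate 1 and 17463307 to 17464673 with a fold of 17.9 in E2F1 replicate 2, above the list medians of 9.19 and 11.3. The summits lay 19 and 31 bp inside the annotated start, the closest of the 9 genes to the start or boundary used for each. For Met that start, 17463957, lies inside the gene span, so the summits were farther from the span's lower boundary. With 106 and 86 reads at the summit, Met was second to Igf1r in pileup also.

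Fgfr1 and Fgfr2 are receptors for fibroblast growth factors and overlap in the ligands they bind. Fgfr1 (chromosome 8, 25518759 to 25575718) had folds of 10.1 in E2F1 replicate 1 and 10.4 in E2F1 replicate 2, in peaks of 1722 and 1708 bp that began 25 and 84 bp outside its lower boundary. The value in replicate 1 was above the list's median and that in replicate 2 below it. Fgfr2 (chromosome 7, 130162451 to 130266808) had folds of 12.3 and 15.4, both above the median, in peaks of 1791 and 1614 bp. The Fgfr2 peaks began 242 and 339 bp inside the start with summits 586 and 591 bp inside, so nothing of them covered the promoter printed above. Fgfr2 was above Fgfr1 in each library.

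The TGF-beta receptors had similar folds. Tgfbr1, the type I receptor, which phosphorylates the SMADs, spans 47353222 to 47414926 on chromosome 4 and had folds of 12.7 in E2F1 replicate 1 and 13.96 in E2F1 replicate 2. Tgfbr2, the type II receptor, which binds the ligand and activates Tgfbr1, spans 116087695 to 116175363 on chromosome 9 and had folds of 9.48 and 14.8. The order of the pair differed between the libraries, and their values overlapped. The summit in Tgfbr1 lay 157 bp inside the start in replicate 1 and 267 bp before it in replicate 2, and in Tgfbr2 it lay 271 and 128 bp inside the start.

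Pdgfra and Pdgfrb, which bind the PDGF dimers and mark fibroblasts and other mesenchymal cells, were in the lowest part of the range. Pdgfra (chromosome 5, 75151322 to 75198206) had 1 peak in E2F1 replicate 1, from 75152857 to 75156928, with a fold of 5.69 and a width of 4072 bp that ranked 23 in its list. E2F1 replicate 2 listed 2 peaks within that interval, at 75152858 to 75153729 with a fold of 6.13 and at 75154767 to 75155299 with a fold of 9.53. The left edges of the first peaks differed by 1 bp, and the interval was thus broad and low in one library and split in the other. All of it lay inside the gene, from 606 bp past the annotated start. Pdgfrb (chromosome 18, 61045127 to 61085067) had folds of 6.34 and 6.84, with summits 469 and 514 bp outside its lower boundary. In replicate 1 the Pdgfrb peak ended 316 bp before the gene, so it was counted through the window of 1000 bp, and at 336 bp it was the narrowest peak of the group in that library. The summits of both peaks, at 61044658 in replicate 1 and 61044613 in replicate 2, lay inside another protein-coding gene, Gm52351. That gene ends at 61044713, so the peaks cannot be assigned to Pdgfrb alone.

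Egfr, the receptor for EGF, spans 16752203 to 16913907 on chromosome 11 and had no peak in any of the 4 lists. Its nearest E2F1 peak lay 36722 bp beyond the gene in replicate 1, at 16950629 to 16951995 with a fold of 9.42, and 36832 bp beyond it in replicate 2, at 16950739 to 16951802 with a fold of 27.6. That peak overlaps the protein-coding gene Fbxo48 and the long non-coding RNA gene Eldr, which were named after the values were seen. The lists hold only peaks with a p below 1e-10. At the lowest common background of the E2F1 lists, 1.85 and 1.86 reads, this takes a pileup of at least 16 reads in either library, so weaker enrichment at Egfr would not be listed.

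**Figure D3:**
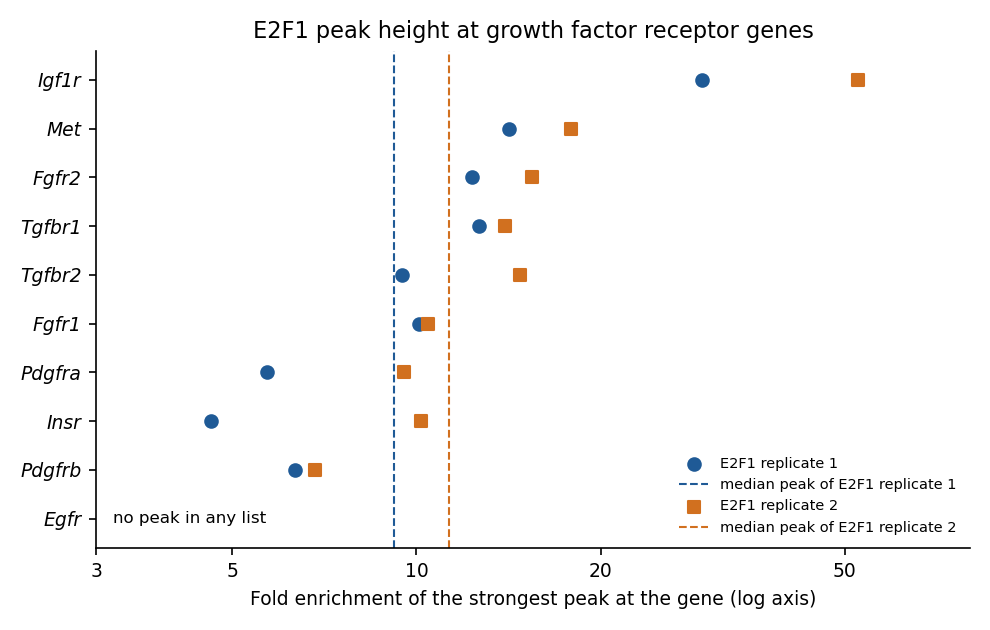
Points give the fold enrichment of the strongest peak at each receptor gene on a log axis, circles for E2F1 replicate 1 and squares for E2F1 replicate 2; dashed lines mark the median of all peaks of each list, 9.19 and 11.3. Igf1r stands apart at 29.3 and 52.5, Insr has the widest gap between libraries, and Egfr has no peak.

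Ordered by the geometric mean of the strongest peak in each list, Igf1r (39.2) was followed by Met (15.9), Fgfr2 (13.8), Tgfbr1 (13.3), Tgfbr2 (11.8), Fgfr1 (10.3), Pdgfra (7.36), Insr (6.86) and Pdgfrb (6.58). The values of neighbours in this order overlapped except between Igf1r and Met, which differed by 1.30 on the log2 scale, and between Fgfr1 and Pdgfra, which differed by 0.48. For Pdgfra the strongest peaks of the libraries are different sites, with summits at 75153120 and 75155094. At the peak nearest the start in each list, the folds were 5.69 and 6.13 and the geometric mean 5.91, which puts Pdgfra last, below Pdgfrb, a reading added after the values were seen. With the strongest peaks, the SD of the log2 fold between libraries (n = 2) ranged from 0.03 in Fgfr1 to 0.81 in Insr, and was 0.60 in Igf1r, 0.24 in Met and 0.53 in Pdgfra. The median of the 9 genes was 11.8 against 11.5 for all 7535 genes with a peak in both lists. Of the 8 genes other than Igf1r, 5 reached the median fold of the list in replicate 1 and 4 in replicate 2. By the geometric mean, 5 of these 8 lay between the quartiles of all such genes, 8.06 and 17.4, and Pdgfra, Insr and Pdgfrb lay below the lower one. The strongest peaks of the 9 genes had median widths of 1722 bp in replicate 1 and 1367 bp in replicate 2. The medians of all peaks in those lists were 938 and 814 bp, which 7 of 9 and 6 of 9 receptor peaks reached. Insr and Pdgfrb were below them in both lists. Widths of the strongest peaks of all 7535 genes are not given here, so this is not shown to be particular to the receptors.

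**Figure D4:**
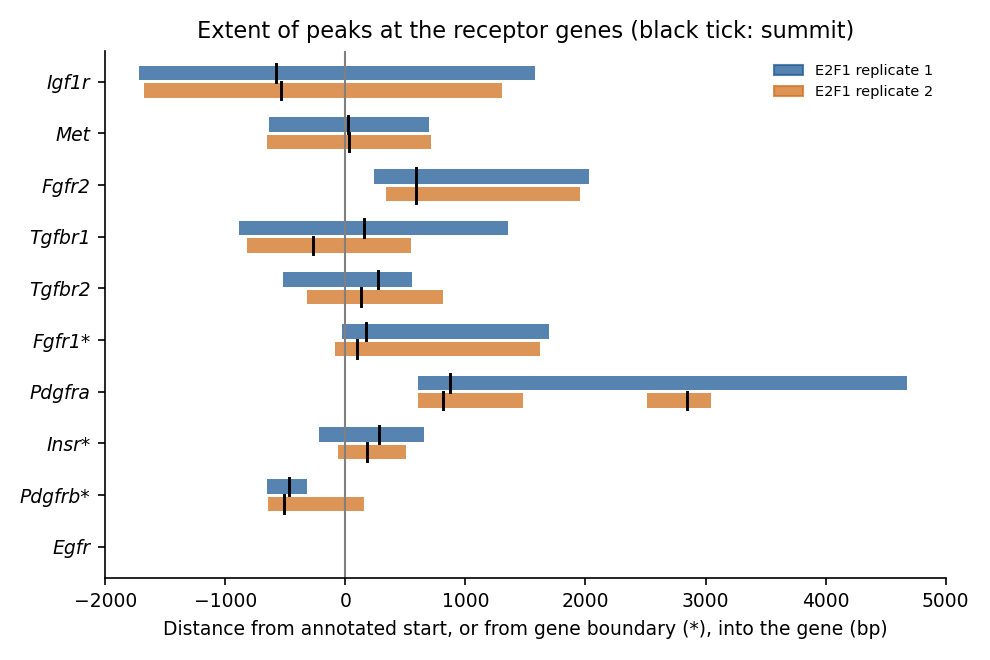
Bars show where each peak lies relative to the annotated start of the gene, or to the gene boundary for genes marked with an asterisk, in bp along the x axis with positive values inside the gene; blue is E2F1 replicate 1, orange is E2F1 replicate 2, and black ticks are summits. Peaks at Igf1r, Met, Tgfbr1 and Tgfbr2 span the start, those at Fgfr2 and Pdgfra lie wholly inside the gene, and the Igf1r peak 177085 bp from the start is outside the plot.

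The fold enrichment was higher in E2F1 replicate 2 at all 9 genes, with ratios of 1.03 to 2.21 and a median of 1.26 for the strongest peaks. With the peak nearest the start, Pdgfra had a ratio of 1.08 in place of 1.67, and the fold was still higher in replicate 2 at all 9 genes. The same held for 70.9% of all genes with a peak in both lists, whose median ratio was also 1.26. The number of reads at the summit, solved from the deposited fold and p-value, was higher in replicate 2 at 4 of the 9 genes and at 47.1% of all genes. The local background in the divisor was lower in replicate 2 at 8 of the 9 genes and at 70.1% of all genes. At Igf1r the pileup was 164 reads in replicate 1 and 149 in replicate 2, over backgrounds of 4.64 and 1.86 reads. At Insr it was 25 and 39 reads over 4.63 and 2.93 reads, so there the pileup and the background both moved toward a higher fold in replicate 2. The lowest pileup at a strongest peak was 20 reads, at Pdgfrb in replicate 1.

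In EV cells the nearest peak to any receptor gene was 107098 bp away, from Pdgfra in EV replicate 2. The EV lists held 70 and 358 peaks in replicates 1 and 2. At their own lowest common backgrounds, 2.20 and 1.18 reads, a peak takes at least 17 and 13 reads. At a background of 7.71 reads, the highest found at a receptor gene in the E2F1 lists (Fgfr1, replicate 1), it takes 31. Less E2F1 at these sites in EV cells and a less efficient immunoprecipitation of the EV libraries cannot be told apart.

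Long non-coding RNA genes shared the interval at several receptors. The peaks at Fgfr1 reached Gm31288, which begins at 25519688 inside Fgfr1. Those at Tgfbr1 reached Gm32435, which begins at 47352314 and runs to 47386146, and those at Tgfbr2 reached Gm40582, which begins at 116175644 just outside the gene. At Pdgfra, Fgfr2, Igf1r, Insr and Met the peaks reached no other annotated gene within 1000 bp.

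Among related genes of the pathway, in 6 lists with 137 genes, the share with a peak in both E2F1 lists differed from list to list. Set beside the 34.4% of all protein-coding genes, it was 5 of 24 (20.8%) for ligands of the 10 receptors, 12 of 36 (33.3%) for a list of other receptor tyrosine kinases and related receptors, 7 of 12 (58.3%) for other receptors of the TGF-beta family, 12 of 13 (92.3%) for SMAD genes and their regulators, 29 of 31 (93.5%) for adaptors and the RAS-ERK and PI3K-AKT pathways, and 18 of 21 (85.7%) for negative regulators of receptor signalling. None of the 137 genes had a peak in either EV list. Peaks of EV replicate 1 reached only 0.0366% of all protein-coding genes, and those of EV replicate 2 only 0.407%. Their absence here is thus not shown to be particular to the signalling genes. The median gene-level fold of the members with a peak in both lists was 9.32 for ligands, 10.9 for the tyrosine kinase list, 15.6 for other TGF-beta family receptors, 11.6 for SMAD genes, 13.7 for adaptors and kinase pathways and 11.2 for negative regulators, beside 11.5 for all such genes. No test was made between lists, and their gene lengths and promoter CpG numbers were not compared. The tyrosine kinase list holds 2 receptors with no kinase domain, Igf2r and Fgfrl1, and without them the count was 11 of 34 (32.4%). In each list the genes given first are from the 3 with the highest mean fold, and genes named for having no peak, or a peak in 1 library, were chosen after their values were seen.

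The ligands with the highest mean fold were Pdgfa, with 15.5 in E2F1 replicate 1 and 12.7 in E2F1 replicate 2, Tgfb1, with 13.1 and 13.7, and Pdgfc, with 7.55 and 11.5. No peak in either E2F1 list was found at 18 of the 24 ligand genes, among them Egf, Igf1, Igf2, Ins1, Ins2 and Hgf. Absence is common: of all protein-coding genes, 36.9% had a peak in E2F1 replicate 1 and 38.2% in E2F1 replicate 2. For Igf1r, Met and Insr the receptor gene was listed and the genes of its main ligands were not. For the PDGF and TGF-beta receptors, ligand genes (Pdgfa, Pdgfc and Tgfb1) were listed too. The highest of the tyrosine kinase list was the collagen receptor Ddr1, with 17.8 and 32.8, before the Wnt5a receptor Ror2, with 13.9 and 23.9, and the ephrin receptor Ephb4, with 16.5 and 17.4. All 3 were below Igf1r in the same library. Fgfr3 and Fgfr4 had no peak in either E2F1 list, unlike Fgfr1 and Fgfr2.

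Of the other TGF-beta family receptors, the activin type I receptor Acvr1b had folds of 22.7 and 29.1 in E2F1 replicates 1 and 2, the BMP receptor Bmpr1a 13.3 and 27.6, and Acvr1 16.9 and 18.5, and 5 (Acvr1c, Acvrl1, Amhr2, Bmpr1b and Eng) had no E2F1 peak. Smad2, a substrate of Tgfbr1, reached 37.6 and 32.2, the BMP-responsive Smad5 19.7 and 24.5, and the SMAD repressor Ski 15.1 and 27.7. These are the highest of 13 genes, and the median of the SMAD list, 11.6, was close to the values of Tgfbr1 (13.3) and Tgfbr2 (11.8). Smad6, an inhibitory SMAD, was listed in replicate 2 alone, with 10.5.

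Downstream of the tyrosine kinases, the growth-control kinase gene Mtor had folds of 32.4 in E2F1 replicate 1 and 38.1 in E2F1 replicate 2, and the kinase gene Akt1 36.3 and 22.3. Araf was the gene of this list with no peak in either E2F1 list, and Rptor was listed in replicate 1 alone, with 6.01. Among the negative regulators, the phosphatase gene Ptpn2 had 18.7 and 38.5, the RAS-ERK inhibitor Spred1 16.6 and 38.8, and Cbl, a ubiquitin ligase for activated receptors, 8.37 and 44.8. Ptprj, Spred3 and Spry4 had no E2F1 peak.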

How the data were processed

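E2F1 ChIP-seq peak lists of 4 libraries were analysed, grouped by the sample titles. Per the submitters' processing notes, FastQC, Trimmomatic, Bowtie2, MACS2 and ChIPseeker were used with the build mm10, the UCSC name of GRCm38. Their settings, the antibody and the control are not given in the sources used here. The authors deposited, for each peak, a score (10 times the −log10 q rounded down, in nearly every peak), a fold enrichment (a ratio of pileup to local background) and the −log10 p and q. Peak names carry the library, so peaks were taken as called per sample.

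Coordinates were counted from 1. Genes and promoters came from RefSeq tables of GRCm38.p6, and all 147 symbols matched. Peaks were assigned to genes by at least 1 bp within the span extended by 1000 bp. Ranks are within a list, 1 being the highest. Pileup and background were solved from fold and p as a Poisson upper tail with a pseudocount of 1. A whole-number pileup fitted within 5% of a step for 100% and 99.74% of peaks of E2F1 replicates 1 and 2. The lowest background shared by at least 1% of a list's peaks is its lowest common background, the measure of depth used here; read totals were not used. Overlap and solving were tested on simulated data. Python 3.11.15, pandas 2.3.3 and scipy 1.17.1 were used.

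The receptor genes and the 6 signalling lists were chosen with earlier results of these data known. The genes named are all 10 receptors, every gene their peaks reach, and the 3 signalling genes per list with the highest mean fold (no listed gene had an EV peak). The value of 1 gene chosen by this rule is not reported here. Sequences are those of promoters under a peak in both E2F1 lists and of 2 others. Intervals are Wilson 95% intervals and cover counting error only. Alternatives changed the window, score limit, overlap, ranking and library set.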

Additional observations from a re-analysis of the deposited data

How the results depend on the processing

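Of 47 alternatives over 15 results, 31 kept the result, 16 moved it and 0 reversed it. Kept does not mean unchanged in size. Among the 31 are the fall of the receptor count from 9 to 6 and of the mean fold of Pdgfra from 7.36 to 5.91. The difference in receptor genes with a peak between E2F1 and EV stayed at 9 without each library in turn and with windows of 500 and 2500 bp, was 8.5 with a window of 0 bp, and was 6 with peaks at or above the median score. Paired by number (replicate block) it was 9, and an exact test that flips the signs of the 2 pairs gave p = 0.5, its lowest possible value; 1 value per library cannot show whether the numbers pair the samples. The count in both E2F1 lists ran from 6 (median score, where Pdgfra, Insr and Pdgfrb drop out) to 9, with 7 at a reciprocal overlap of 50%, where Pdgfra and Pdgfrb drop out. The share of all protein-coding genes under these limits is not given here, so 6 and 7 cannot be set beside 34.4%. The share of protein-coding genes, 34.4%, was 48.1% in the receptors' length range, 18% for genes of any type, 32.9% and 35.5% with windows of 0 and 2500 bp, and 32.1% at starts. The median receptor peak stood above 56.5% and 60.3% of E2F1 replicates 1 and 2 by fold, above 63.1% and 64.3% by score, and above 59.7% and 70.0% by pileup. Signalling genes with a peak in both lists fell from 83 to 50 at the median score, where weaker peaks are left out by construction. These 50 also have no matching share of all protein-coding genes. Receptor promoters with an E2F word were 0 with 8 letters, 1 with 7, and 0 in the whole 300-base window, an alternative chosen after the data were seen. The peak nearest the start in place of the strongest, and the tyrosine kinase list without Igf2r and Fgfrl1, were also added then. For the other shifts the cause was not tested. The p limit of 1e-10 leaves weaker sites out of every list.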
